A study of Mus musculus with 9 samples.

Results

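The genes described here are the stress-responsive transcription factors Atf4 and Atf5, the Atf4 target genes Asns, Psat1, Phgdh, Mthfd2, Trib3 and Sesn2, and the stress hormone genes Gdf15 and Fgf21. They were taken by symbol from the table of read counts per gene in the heart. Of these 10 genes, 9 had counts among the 13890 genes of the table, and Fgf21 was not analysed here. The hearts came from NSG male mice, an immunodeficient strain without T, B or natural killer cells. The mice were 8 weeks old at surgery and were killed more than 3 weeks later. The 3 sham mice (S, animals 2, 3 and 5) received saline into the spleen in place of tumour cells. The 3 mice labelled as hosts of splenic HCT116 cells (T, animals 11, 12 and 15) had, by that label, received a human colorectal cancer line that spreads to the liver. The 3 mice labelled HCT116 + ACVR2B/Fc (A + T, animals 20, 21 and 22) were labelled as receiving the same cells together with weekly ACVR2B/Fc, a soluble activin receptor joined to an antibody Fc part, which traps activins, myostatin and related ligands, while by the design the S and T mice were given saline. The numbers in the sample titles were taken as animal numbers.

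The label of the T group is in doubt. Across the genes that the study lists, the differences between the libraries labelled T and those of S lay on those that it gives for sham-operated mice treated with ACVR2B/Fc, and not on those it gives for untreated tumour hosts. Groups are therefore named by their labels, and a statement about T is about the libraries so labelled. The study also had sham mice given ACVR2B/Fc, and whether the mice labelled T carried a tumour could not be settled from the counts.

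Atf4 is the main transcription factor of the integrated stress response. Stress kinases phosphorylate the translation factor eIF2alpha, which slows protein synthesis in general but raises translation of the Atf4 mRNA, so the amount of Atf4 mRNA does not by itself report Atf4 protein. Atf4 then activates genes for the synthesis and import of amino acids and for mitochondrial folate metabolism, together with feedback inhibitors. In heart and skeletal muscle with mitochondrial damage, the same response induces the circulating hormones GDF15, which lowers appetite through receptors in the hindbrain, and FGF21, which acts on fat, liver and brain.

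The libraries held between 12392222 and 19732471 counts on genes, and 3 counts corresponded to between 0.152 and 0.281 CPM (counts scaled to a common effective library size by the TMM method). From 4.57% to 19.6% of the counts of a library fell on the ribosomal RNA gene Rn45s. Summed markers of cardiomyocytes lay between 39700 and 61800 CPM in all 9 libraries, and those of liver between 1.58 and 16.1 CPM. The summed markers of atrium ranged from 66.0 CPM (animal 15 of T) to 1190 CPM (animal 12 of T). Of the airway list, Scgb1a1 and Scgb3a1 were present. They summed to 1080 CPM in animal 22 of A + T, 103 CPM in animal 12 of T and at most 2.08 CPM in the other 7 libraries. Scgb3a1 was at most 0.804 CPM in A + T, so the sum of animal 22 was nearly all Scgb1a1. In T, Scgb1a1 reached 79.9 CPM and Scgb3a1 23.4 CPM. Adipocyte markers summed to 78.1 CPM in animal 12 of T and to at most 18.4 CPM elsewhere.

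All 9 genes passed the filter on low counts, and 2 of their 27 differences passed an adjusted P-value of 0.05 in edgeR's quasi-likelihood test. Phgdh was lower in T than in S by 2.70-fold, and Gdf15 was 2.42-fold lower in A + T than in S. In T vs. S, 1 of the 9 genes was called (Phgdh, lower), where 21.2% of all 13364 genes tested were called. In A + T vs. T none was called by edgeR or DESeq2, where edgeR called 5.88% of all genes, and 0 of 9 had an unadjusted P-value under 0.05 in edgeR, against 22.4% of all genes. In A + T vs. S, 1 of 9 was called (Gdf15, lower), against 8.31% of all genes. The median log2 fold change of the 9 genes was −0.02 in T vs. S, −0.11 in A + T vs. T and −0.05 in A + T vs. S, beside medians over all genes of 0.00, 0.01 and 0.00. The libraries of both groups did not overlap for 3 of the 9 genes in T vs. S (42.6% of all genes), for 0 in A + T vs. T (25.4%) and for 2 in A + T vs. S (32.4%). The comparisons are not independent, since the libraries labelled T enter both T vs. S and the contrast with A + T, and those of S enter both contrasts against S.

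**Figure D1:**
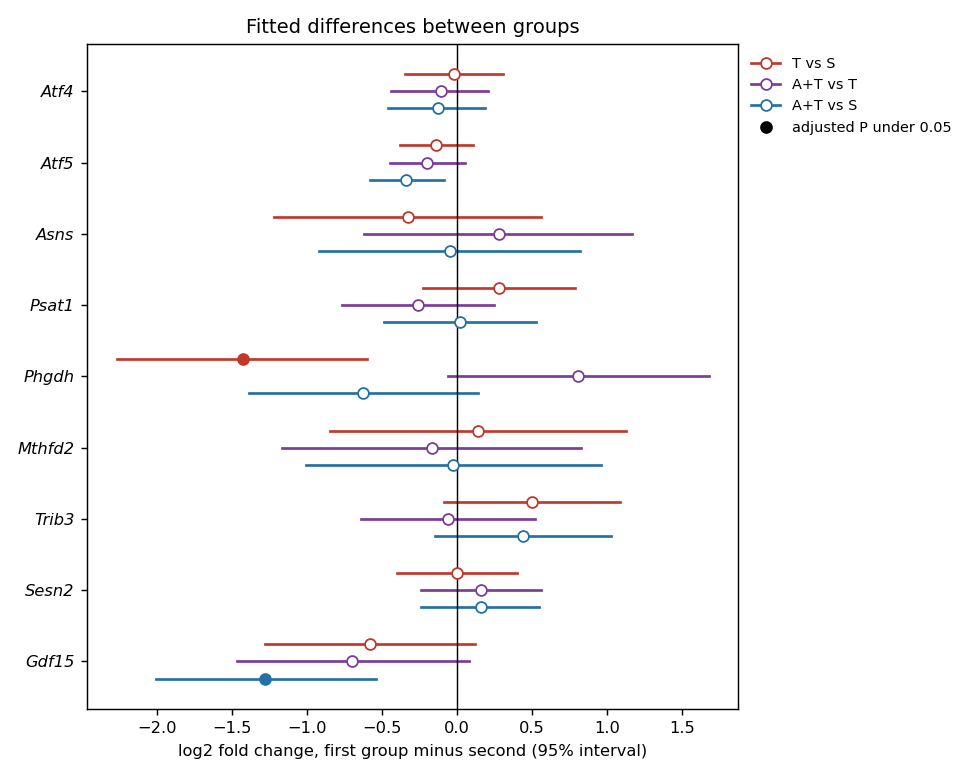
Log2 fold change (x axis, first group minus second) of each gene in the 3 comparisons, with its 95% interval from edgeR's quasi-likelihood fit. Filled points, Phgdh in T vs. S and Gdf15 in A + T vs. S, passed an adjusted P-value of 0.05, and the other 25 intervals are drawn with open points.

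On the scale of the deposited log2 values, which are scaled by library and by a constant for each gene, as for gene length, the genes fell into an abundant pair and a group of weakly expressed genes. The transcription factors Atf5 and Atf4 had mean log2 values of 5.46 and 5.39 over the 9 libraries, with overlapping ranges of 5.18 to 5.72 and 4.95 to 5.65. Every library of the other 7 genes lay below these, between −1.74 for Phgdh and 1.56 for Trib3. Among them the order of mean log2 value was Trib3 (1.14), Sesn2 (0.54), Psat1 (0.47), Asns (0.25), Gdf15 (0.20), Mthfd2 (−0.25) and Phgdh (−0.72). The ranges of neighbours in this order overlapped in each case. The lowest count of any of the 9 genes was 7 (Phgdh, animal 11 of T), for which counting error alone gives a 95% exact Poisson interval of 2.81 to 14.4.

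**Figure D2:**
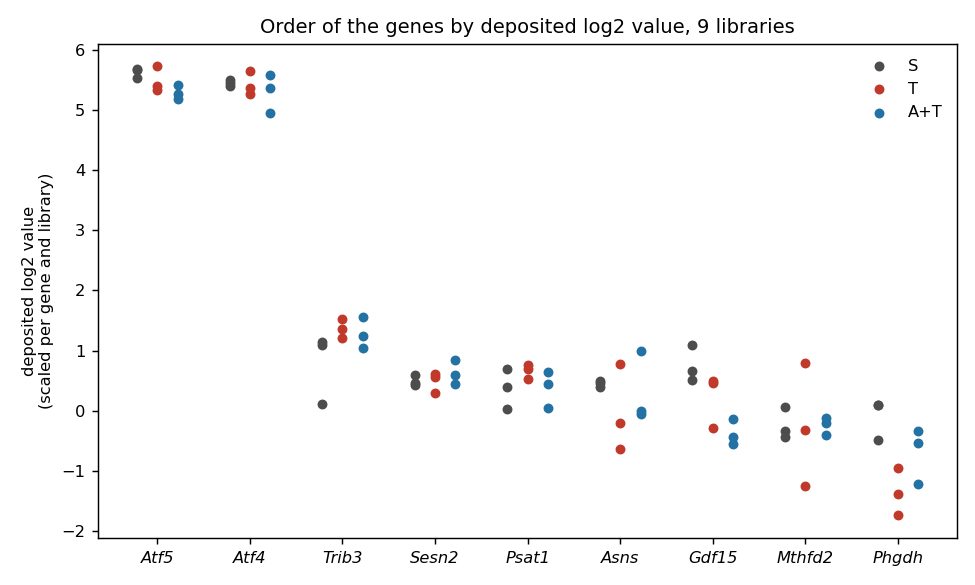
Deposited log2 value (y axis) of the 9 genes, ordered along the x axis by their mean over all libraries, with 1 point per library coloured by group. Atf5 and Atf4 stand at 4.95 or above in every library, and all values of the other genes lie between −1.74 and 1.56.

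On GRCm38 (mm10), Atf4 occupies chromosome 15 from 80255184 to 80257541 on the plus strand. Its level was 78.6, 73.4 and 75.3 CPM in S, 71.2, 66.4 and 86.9 CPM in T, and 53.5, 71.2 and 82.6 CPM in A + T. The groups overlapped, and the spread was wider in T and A + T than in S, with means of 75.7 ± 2.65, 74.8 ± 10.7 and 69.1 ± 14.7 CPM (SD, n = 3). T vs. S gave a log2 fold change of −0.02, with a 95% interval from −0.35 to 0.31 (adjusted P = 0.938, edgeR), which holds the levels to within 0.786 and 1.24 times that of S. For A + T vs. T it was −0.11 (−0.44 to 0.21).

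Atf5, a related factor that is itself under the control of eIF2alpha phosphorylation and that acts in the mitochondrial stress response, lies on chromosome 7 from 44812256 to 44816658. It measured 102, 92.4 and 101 CPM in S, 80.3, 83.8 and 105 CPM in T, and 72.5, 76.5 and 85.3 CPM in A + T. Every A + T library was below every S library, while T overlapped both. A + T vs. S gave a log2 fold change of −0.34 (SE 0.11, 95% interval −0.58 to −0.09), with an unadjusted P-value of 0.0116 and an adjusted P = 0.0861 in edgeR. DESeq2 gave an adjusted P = 0.0437 for the same change, and so did edgeR without animal 15 of T, at 0.0443, so the call turned on the tool and on that library.

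The enzymes come next. Phgdh, the first enzyme of serine synthesis, lies on chromosome 3 from 98313170 to 98339990 on the minus strand. Reads on Phgdh numbered 34, 24 and 26 in S, 7, 10 and 9 in T, and 11, 19 and 19 in A + T. Scaled for depth they came to 1.88, 1.22 and 1.88 CPM in S, to 0.434, 0.594 and 0.842 CPM in T, and to 0.680, 1.36 and 1.17 CPM in A + T. All T libraries lay below all S libraries, and A + T lay between them, overlapping both. T vs. S gave a log2 fold change of −1.43 (SE 0.38, 95% interval −2.27 to −0.60, adjusted P = 0.0219 from edgeR), with group means of 1.66 ± 0.382 and 0.623 ± 0.206 CPM (SD, n = 3). An exact permutation test of this difference gave P = 0.1, the smallest that 3 animals against 3 allow. The call was lost without animal 2 or 5 of S (adjusted P = 0.0764 and 0.0660, edgeR) and without animal 11 or 12 of T (0.0861 and 0.0614), while the log2 fold change stayed between −1.65 and −1.22. The log2 fold change was 0.81 in A + T vs. T (−0.06 to 1.68, adjusted P = 0.256, edgeR) and −0.63 in A + T vs. S (−1.39 to 0.14, adjusted P = 0.278, edgeR).

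In T, markers of fibroblasts and of endothelium were also lower than in S. Of all genes, 11% fell in this comparison. All 4 fibroblast markers fell, with summed levels of 716 to 845 CPM in T against 1050 to 1250 CPM in S, and 2 of the 3 endothelial markers fell, with 337 to 425 CPM against 581 to 691 CPM. Also below S without overlap were the sums of cardiomyocytes (42700 to 52500 against 55700 to 61800 CPM). So were those of skeletal muscle (0.594 to 1.11 against 2.1 to 2.24 CPM). Of these genes Actc1 and Actn3 were called lower and Tnnt2 higher, and the other marker sums overlapped. None of these markers was at 0 in any library, and their part in the level of Phgdh was not tested. In whole-heart RNA, fewer cells of a type and less RNA per cell cannot be told apart.

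Psat1, the aminotransferase that follows Phgdh in serine synthesis, lies on chromosome 19 from 15904678 to 15947337. It measured 2.43, 3.15 and 3.90 CPM in S, 3.47, 3.92 and 4.11 CPM in T, and 3.28, 2.44 and 3.82 CPM in A + T. The groups overlapped, and T vs. S gave a log2 fold change of 0.28 (−0.23 to 0.79, adjusted P = 0.416, edgeR). Phgdh and Psat1, consecutive enzymes of the same pathway, had intervals in T vs. S that did not overlap; this difference between genes was not itself tested.

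Asns, which makes asparagine from aspartate and glutamine, lies on chromosome 6 from 7675169 to 7693254. Its level was nearly the same in the 3 S libraries, at 2.54, 2.44 and 2.6 CPM, but spread widely in T, at 1.55, 3.21 and 1.12 CPM, and in A + T, at 1.73, 1.79 and 3.76 CPM. In each of these groups 1 library, animal 12 of T and animal 22 of A + T, lay above every S library and the others lay below. T vs. S gave a log2 fold change of −0.33 with a 95% interval from −1.22 to 0.56 (adjusted P = 0.596, edgeR). It was −0.89 without animal 12, −0.17 without animal 11 and −0.07 without animal 15 of T. In A + T vs. T it was 0.28 (−0.62 to 1.17), and −0.20 without animal 22 of A + T. Animals 12 and 22 were also the libraries with the highest airway marker sums, and the part of these in the level of Asns was not tested.

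The Asns promoter holds a sequence through which Atf4 and C/EBP factors are known to act, and it is shown here because it is the classical site of this response. The promoter windows of the genes, from 250 bases before to 50 bases after each start in RefSeq (GRCm38.p6), were searched on both strands for TGATGNAA, the core of the C/EBP-ATF response element, which reads TTNCATCA on the other strand. All 10 genes matched to a window, with 13 windows in all. A match lay before the RefSeq start in 2 of the 10 genes, Asns and Fgf21, whereas 3.91% of 27025 genes had one there. Capitals mark the match in the following lines, which are written 5′ to 3′ on the strand of the gene. The Asns stretch is chr6:7693210-7693247, minus strand, with the match 23 to 16 bases before the start, and the Fgf21 stretch is chr7:45615607-45615644, minus strand, with the match 139 to 132 bases before the start and in the opposite orientation.
Asns: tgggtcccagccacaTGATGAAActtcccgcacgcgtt
Fgf21: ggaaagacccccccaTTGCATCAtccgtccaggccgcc
Trib3 had a match, TTACATCA, 15 to 22 bases after its RefSeq start. The motif was not found in the windows of the other 7 genes, Phgdh and Gdf15 among them. The gene positions printed in this report are those of GENCODE, whose starts differ from RefSeq's for several of the genes. By GENCODE the Asns match lies inside the gene, which reaches 7693254. The Trib3 match lies before the GENCODE start of that gene, at 152344032. Neither Asns nor Trib3 passed the test in any comparison.

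Mthfd2, a mitochondrial enzyme of folate metabolism, lies on chromosome 6 from 83305691 to 83325908. It measured 2.04, 1.42 and 1.52 CPM in S, 0.743, 1.54 and 3.46 CPM in T, and 1.67, 1.44 and 1.79 CPM in A + T. Its T libraries covered the whole range of the other groups, from the lowest value of all 9 libraries (animal 11) to the highest (animal 15). On the log2 scale T vs. S differed by 0.14 (−0.85 to 1.13, adjusted P = 0.851, edgeR), and it was −0.52 without animal 15. In A + T vs. T it was −0.17 (−1.17 to 0.83), and 0.51 without animal 15. The interval of A + T vs. T runs from 0.445 to 1.78 times the level in T, so changes within that range are not excluded at this depth and spread.

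The feedback regulators did not pass the test either. Trib3, a pseudokinase that binds Atf4 and dampens its activity, lies on chromosome 2 from 152337422 to 152344032. It measured 4.31, 4.41 and 2.10 CPM in S, 4.58, 5.17 and 5.80 CPM in T, and 4.14, 4.74 and 5.97 CPM in A + T. Each T library was above each S library, by a narrow margin apart from animal 5 of S, which held 29 counts against 62 to 97 elsewhere. On the log2 scale T vs. S differed by 0.50 (−0.09 to 1.09, adjusted P = 0.208, edgeR), and 0.24 without animal 5.

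Sesn2, which senses leucine and restrains the growth kinase mTORC1, lies on chromosome 4 from 132492032 to 132510501. It measured 3.54, 3.45 and 3.90 CPM in S, 3.16, 3.80 and 3.93 CPM in T, and 3.89, 3.52 and 4.68 CPM in A + T. On the log2 scale T vs. S differed by 0.00 (−0.40 to 0.40), which limits a change to between 0.757 and 1.32 times S. In A + T vs. S it was 0.16 (−0.24 to 0.55, adjusted P = 0.618, edgeR).

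**Figure D3:**
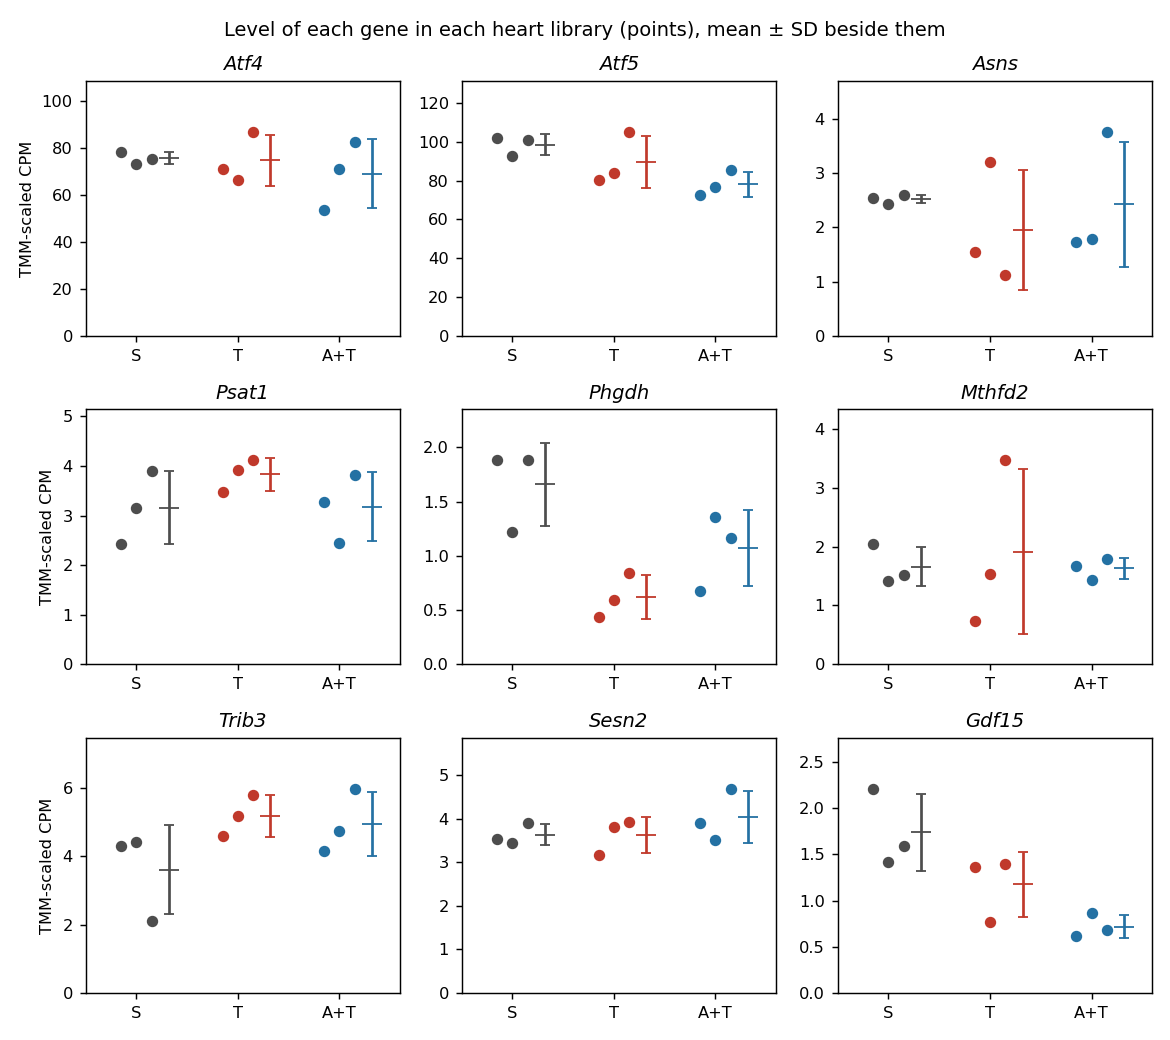
TMM-scaled CPM (y axis from 0, a separate scale for each gene) in every library of S, T and A + T, with the mean and SD (n = 3) beside the points. Phgdh in T and Gdf15 in A + T lie below all S libraries, whereas Asns and Mthfd2 show their widest spread within groups.

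Gdf15 encodes a stress hormone of the TGF-beta superfamily and lies on chromosome 8 from 70629393 to 70632456. Reads on Gdf15 numbered 40, 28 and 22 in S, 22, 13 and 15 in T, and 10, 12 and 11 in A + T. Scaled for depth they came to 2.21, 1.42 and 1.59 CPM in S, 1.36, 0.772 and 1.40 CPM in T, and 0.618, 0.861 and 0.677 CPM in A + T. The 3 S libraries were the highest of all 9, the A + T libraries lay below S without overlap, and T overlapped A + T. A + T vs. S gave a log2 fold change of −1.28 (SE 0.33, 95% interval −2.01 to −0.54, adjusted P = 0.0424 from edgeR), with means of 1.74 ± 0.416 and 0.719 ± 0.127 CPM (SD, n = 3) and an exact permutation P = 0.1. In T vs. S it was −0.58 (−1.28 to 0.12, adjusted P = 0.217, edgeR) and in A + T vs. T −0.70 (−1.47 to 0.08, adjusted P = 0.268, edgeR).

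The call of Gdf15 lay close to the threshold. It was kept in 2 of the 9 edgeR refits with an animal left out, those without animal 12 or 15 of T, and lost in the others. The adjusted P-value was 0.156, 0.0776 and 0.0835 without animals 2, 3 and 5 of S, 0.0560 without animal 11 of T, and 0.0979, 0.0679 and 0.0878 without animals 20, 21 and 22 of A + T, while the log2 fold change lay between −1.41 and −1.06. It was also lost, at 0.0549, when libraries were scaled by their totals alone. Macrophage markers moved in the same comparison in the other direction. All 5 rose in A + T vs. S, from summed levels of 263 to 296 CPM in S to 486 to 722 CPM in A + T, with none at 0 in any library. Of all genes, 4.67% rose. Below S without overlap were the sums of endothelium (449 to 526 against 581 to 691 CPM) and atrium (115 to 767 against 1020 to 1130 CPM). So were those of cardiomyocytes (39700 to 55500 against 55700 to 61800 CPM) and liver (1.58 to 4.57 against 6.36 to 16.1 CPM). Of these genes only Cdh5 was called, and the other marker sums overlapped. The part of these cell types in the level of Gdf15 was not tested.

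Of other genes of the stress response, 69 were tested in lists by role, leaving out Slc7a11, Dele1, Gfral, Klb, Kl and Fgfr4, which were not analysed here. In T vs. S, 12 of the 69 rose and 6 fell, where 10.3% of all genes rose and 11% fell. In A + T vs. T, 8 fell and 0 rose, where 2.79% of all genes fell and 3.09% rose. In A + T vs. S, 2 rose and 2 fell, where 4.67% of all genes rose and 3.64% fell. The medians of the 69 genes were 0.09, −0.18 and −0.11 on the log2 scale. The count in T vs. S was 7 without animal 2 of S, 10 without animal 11 and 11 without animal 15 of T. The count of 8 in A + T vs. T was 3, 2 and 5 without animals 2, 3 and 5 of S, 2, 4 and 3 without animals 11, 12 and 15 of T, and 1 and 2 without animals 20 and 21 of A + T. In A + T vs. S it was 2 without animal 2 of S or animal 21 of A + T. The counts also rose in some refits. Over all 9 refits they ran from 7 to 25 in T vs. S, from 1 to 11 in A + T vs. T and from 2 to 6 in A + T vs. S.

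Of the factors and feedback genes of the response, 4 of 12 rose and 0 fell in T vs. S, where 10.3% of all genes rose. Chac1, an enzyme that breaks down glutathione and a sensitive Atf4 target, measured 2.04, 1.67 and 4.99 CPM in S, 7.87, 12.7 and 7.76 CPM in T, and 5.32, 4.52 and 5.85 CPM in A + T. It was 3.35-fold higher in T (log2 fold change 1.74, SE 0.36, adjusted P = 0.00755 from edgeR), with no overlap between T and S. Herpud1, a membrane protein of endoplasmic reticulum-associated degradation, measured 207 ± 2.77 CPM in S, 372 ± 31.3 CPM in T and 215 ± 31.3 CPM in A + T (SD, n = 3), with log2 fold changes of 0.85 in T vs. S and −0.79 in A + T vs. T (adjusted P = 0.000793 and 0.00558, edgeR). Eif4ebp1, a repressor of cap-dependent translation, rose from 54.2 ± 1.78 to 98 ± 11.5 CPM in T (log2 fold change 0.86) and was also called in A + T vs. S (0.53), a call kept in 4 of the 9 refits with an animal left out and lost, at an adjusted P = 0.109 in edgeR, when scaling by library totals alone. Cebpb, a partner factor of Atf4 named here after its values were seen, rose by 1.15 on the log2 scale in T vs. S. The calls of Chac1, Herpud1 and Eif4ebp1 in T vs. S were kept in all 9 refits with an animal left out, and that of Cebpb in 5. Ddit3, which encodes the stress factor CHOP, was not called, at 14.4 to 19.2 CPM in S, 12.9 to 17.5 CPM in T and 12.1 to 15.2 CPM in A + T.

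Genes of amino acid synthesis and mitochondrial folate metabolism other than the 9 went both ways in T vs. S, with 4 of 11 lower, 1 higher and a median of −0.17. Of all genes, 11% were lower and 10.3% higher. Aldh18a1, which starts proline synthesis, fell from 10.5 ± 1.30 to 5.2 ± 0.131 CPM (SD, n = 3; log2 fold change −1.0, adjusted P = 0.00123 from edgeR) and was 6.51 ± 0.711 CPM in A + T, also below S (−0.68, a call kept in 6 of 9 refits with an animal left out). Bcat1, a branched-chain aminotransferase, fell by 1.0 on the log2 scale, and Cth, which makes cysteine, rose by 0.85. The other genes called were Gpt2 (−0.41) and Aldh1l2 (−0.91), named after their values were seen. The calls of Bcat1, Cth, Gpt2 and Aldh1l2 were kept in 5, 5, 4 and 3 of the 9 refits with an animal left out. In A + T vs. T none of the 11 was called by edgeR or DESeq2, and 3 had an unadjusted P-value under 0.05 in each.

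Of 7 transporters, Slc3a2, the heavy chain of several amino acid exchangers, rose in T vs. S (log2 fold change 0.80, from 45.0 ± 1.93 to 78.2 ± 8.89 CPM), and Slc1a4, a carrier of alanine and serine, fell (−0.94), the latter in 4 of the 9 refits with an animal left out. Slc38a2, a carrier of small neutral amino acids, fell in A + T vs. T (−0.74), a call kept in 5 of 9 such fits. Of all genes, 10.3% rose and 11% fell in T vs. S, and 2.79% fell in A + T vs. T.

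**Figure D4:**
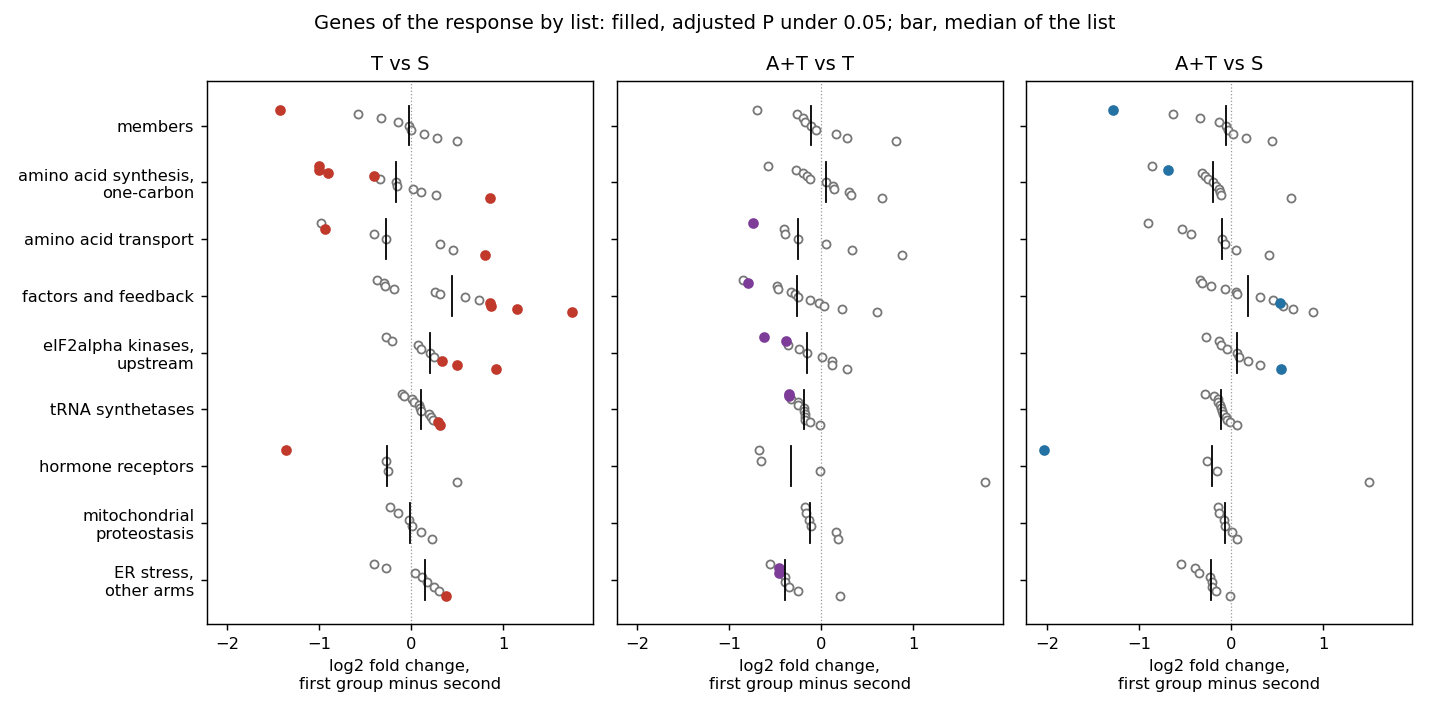
Log2 fold change (x axis, first group minus second) of every gene tested in each list (rows) for the 3 comparisons, with the 9 genes in the top row as members. Filled points passed an adjusted P-value of 0.05 in edgeR, and bars give each list's median, which in T vs. S runs from −0.28 for transporters to 0.45 for factors and feedback genes.

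Upstream of Atf4, 3 of 9 genes rose and 0 fell in T vs. S, where 10.3% of all genes rose and 11% fell. Eif2ak2, which encodes the double-stranded RNA kinase PKR, measured 28.8 ± 1.04 CPM in S, 54.6 ± 1.07 CPM in T and 41.8 ± 4.84 CPM in A + T (SD, n = 3), and was called in all 3 comparisons. Its log2 fold changes were 0.92 in T vs. S, −0.38 in A + T vs. T and 0.54 in A + T vs. S, and the call in A + T vs. T was kept in 1 of 9 refits with an animal left out. The other kinases, Eif2ak1, Eif2ak3 and Eif2ak4, were not called, with log2 fold changes of 0.11, −0.21 and 0.20 in T vs. S. Eif2s1, which encodes eIF2alpha itself, rose by 0.33, and Impact, an inhibitor of the kinase encoded by Eif2ak4, rose by 0.50 in T vs. S and fell by 0.62 in A + T vs. T. The call of Eif2s1 was kept in 7 of 9 refits, and that of Impact in 6 of 9 in each of these comparisons. Of 12 tRNA synthetases, Cars and Eprs rose in T vs. S (0.31 and 0.29) and fell in A + T vs. T (both −0.35). Their calls were kept in 5 and 6 of 9 such refits in T vs. S and in 0 and 2 in A + T vs. T. Of all genes, 10.3% rose in T vs. S and 2.79% fell in A + T vs. T.

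Other arms of the response to stress in the endoplasmic reticulum gave 1 call of 8 in T vs. S, the chaperone cofactor Dnajb9 (log2 fold change 0.38, kept in 4 of 9 refits with an animal left out), and 2 in A + T vs. T, the chaperone Hsp90b1 and the transcription factor Xbp1 (both −0.46, kept in 3 and 1 of 9). None of 6 genes of mitochondrial protein quality control was called in any comparison by edgeR or DESeq2, with 1, 0 and 0 at an unadjusted P-value under 0.05 in either. Of all genes, edgeR called 21.2% in T vs. S, 5.88% in A + T vs. T and 8.31% in A + T vs. S.

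Of the hormone receptor genes, Ret, the co-receptor that signals for GDF15 together with a receptor of the hindbrain and that also serves other ligands, measured 7.85, 6.80 and 8.75 CPM in S, 2.85, 3.09 and 3.18 CPM in T, and 2.23, 1.79 and 1.66 CPM in A + T. Ret was lower in both groups than in any S library, by log2 fold changes of −1.36 in T vs. S (adjusted P = 0.000756, edgeR) and −2.03 in A + T vs. S (adjusted P = 0.000836, edgeR), and both calls were kept in all 9 refits with an animal left out. Fgfr1, a receptor of FGF21, was not called, at −0.25 in T vs. S and −0.26 in A + T vs. S.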

How the data were processed

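RNA of 9 hearts was measured, 3 each labelled S, T and A + T, grouped by the tumour label. The authors prepared mRNA libraries, sequenced 75-base paired ends, aligned them with STAR to mm10 and assigned unique reads to RefSeq genes with featureCounts, using strand. The deposited counts are per gene and not normalized, and the deposited log2 values are normalized per library. These differed from log2 CPM by a constant for each gene (median SD over libraries 1.49e-05). Versions of STAR and featureCounts are not given in the sources used here. Both tables hold 3443 empty rows, which carry no counts and were left out.

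The filter of the study was applied, which drops genes below 0.5 CPM in over 4 libraries, and kept 13364 of 13890 genes. Groups were compared with edgeR 4.0.16 (R 4.3.3), quasi-likelihood test, TMM, all 9 libraries in the fit, Benjamini-Hochberg adjustment over all genes and a threshold of 0.05. The standard error is the log2 fold change over the root of F. CPM values use TMM-effective library sizes. Exact permutation tests (two-sided) used log2(CPM + 0.1). DESeq2 1.42.0 and limma 3.58.1 (on the deposited log2 values) were alternatives. The steps were tested on simulated data with known changes. Nothing but the animal numbers says that libraries of a group are separate animals, whose counts differed by more than sampling noise (chi-square per gene at least 7.63). Intervals cover counting error only where said to be Poisson intervals, since reads carried no molecular identifiers.

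The genes and lists were chosen with earlier results of these data known. All 10 genes were to be named, and of each list the genes past the threshold with the smallest adjusted P-values, at most 3 per comparison. Promoter sequences and start sites are RefSeq's (GRCm38.p6), gene positions those of GENCODE M21 on GRCm38, the assembly of mm10. Figures were drawn with Python 3.11.15 and matplotlib 3.10.9.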

Additional observations from a re-analysis of the deposited data

How the results depend on the processing

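Over the refits with other tools, scalings and filters, the 9 genes kept direction and call in 70 of 71 values in T vs. S, 70 of 71 in A + T vs. T and 69 of 71 in A + T vs. S, and the other genes named kept theirs in 134 of 144, 49 of 64 and 29 of 32. The sign of Mthfd2 turned with limma on the deposited log2 values (−0.03 in T vs. S, 0.01 in A + T vs. T). Signs were compared after rounding, so Sesn2, at 0.00 in T vs. S, could not count as turned. Its values in these refits ran from −0.04 to 0.01. Requiring 10 counts in every library removed Phgdh and left 0 calls among the 9 genes in T vs. S. In A + T vs. S, scaling by library size only gave 0 calls and DESeq2 gave 2 (Atf5 and Gdf15). Of the 69 other stress genes, library size only gave 10 calls in place of 18 in T vs. S, 3 in place of 8 in A + T vs. T and 1 in place of 4 in A + T vs. S, and a fit of only the 2 groups compared gave 1 in A + T vs. T. Over all genes, calls went from 2837 to 1637, from 786 to 438 and from 1110 to 555 with library size only, and in A + T vs. T to 217 with only 2 groups and 1198 with DESeq2.

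With each animal left out in turn, an arm of 2 being assumed to vary like the others, the 9 genes had 0 to 1 calls in T vs. S, 0 in every fit of A + T vs. T and 0 to 2 in A + T vs. S, and the 69 genes had 7 to 25, 1 to 11 and 2 to 6. Over all genes the calls ranged from 1765 to 3786, from 130 to 1006 and from 269 to 1086. Log2 fold changes of the 9 genes that turned sign were those of Sesn2 (−0.05 to 0.09 in T vs. S), Atf4 (−0.13 to 0.06 in T vs. S, −0.26 to 0.04 in A + T vs. T, −0.28 to 0.02 in A + T vs. S), Mthfd2 (−0.52 to 0.55, −0.57 to 0.51 and −0.13 to 0.16), Asns (−0.20 to 0.84 in A + T vs. T, −0.51 to 0.15 in A + T vs. S), Trib3 (−0.22 to 0.06 in A + T vs. T) and Psat1 (−0.13 to 0.19 in A + T vs. S). The cause was not tested. At the study's thresholds (1.5-fold, unadjusted P of 0.05), 1, 0 and 1 of the 9 genes and 13, 7 and 6 of the 69 passed, against 14.2%, 8.1% and 8.91% of all genes. Depth limits Phgdh, Gdf15, Asns and Mthfd2, with 7 to 61 counts a library. No paired analysis was possible because the labels give the groups no shared replicate numbers.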

Other observations

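In T and A + T, a single library held the highest value of most of the 9 genes, whereas in S animals 2, 3 and 5 were highest for 4, 1 and 4. In T, animal 15 was highest for 8 of the 9 (all but Asns), while it was highest for 35.5% of all genes tested. In A + T, animal 22 was highest for 7 of the 9 (all but Phgdh and Gdf15), against 40.4% of all genes, and in S, animal 3 was lowest for 7 of the 9, against 33.0%. With libraries scaled by their totals alone, animal 15 was highest for 4 and animal 22 for 6 of the 9 genes, against 8.37% and 35.3% of all genes. On that scaling animal 3 of S was lowest for 3 genes (14.2% of all genes) and animal 2 for 5 (71.0%), so the rank of animal 3 did not hold, and in T animal 12 was also highest for 4. This pattern was noticed in the data, and its source was not tested.

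Atf3, an immediate stress factor among the feedback genes, varied widely within groups. It measured 12.4, 19.3 and 28 CPM in S, 42.9, 14.6 and 41.8 CPM in T, and 7.54, 35.9 and 38.2 CPM in A + T, and T vs. S differed by 0.74 on the log2 scale, which did not pass the test (adjusted P = 0.372, edgeR).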
